A study of Mus musculus with 9 samples.

Results

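The interleukin receptor genes are the chains through which cells bind interleukins, and 35 of the 18193 genes on the array belonged to them. A gene was taken when its symbol was Il, digits, r and an optional ending. The antagonist Il1rn and the signalling chain Il6st were left out. The symbols came from the platform annotation and did not use any measured value. The 35 genes were covered by 64 probe sets, and 19 of them had several, of which the one with the highest mean over the 9 arrays gave the value. Il2rg, Il11ra1, Il11ra2, Il23r, Il1rl1 and Il17rel were not analysed here.

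Levels were measured in 3 kinds of mouse cell. VSEL, very small embryonic-like stem cells, were Sca-1+ marrow cells of C57BL/6 mice, 4 weeks old, that lacked lineage markers and CD45 in the sort. HSC, haematopoietic stem cells, came from the same kind of marrow by the same gate except that they carried CD45. ESC were the D3 line of embryonic stem cells, 1 line from the 129S2/SvPas strain, kept on 0.1% gelatin in medium holding 10 ng/ml leukaemia inhibitory factor (LIF). The labels name no genetic change and no drug, and each library was amplified from the lysate of 20 sorted cells. Values are log2 RMA values, so a difference of 1 is a factor of 2. Arrays 2 and 3 of VSEL correlated at 0.989, against 0.831 to 0.957 for the other pairs within a group, and a single probe set differed between them by over 4-fold, against 1565 to 4233. They were averaged and counted as 1 library, VSEL 2+3, so n was 2 for VSEL, 3 for HSC and 3 for ESC. Whether different animals or dishes gave the libraries of a group is not in the labels, and the spread behind each p-value is the spread among these libraries, which may be technical.

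Interleukin receptors work as pairs or larger complexes in which 1 chain binds the ligand and another, often shared between several receptors, carries the signal into the cell. The common gamma chain family (IL-2, IL-4, IL-7, IL-9, IL-15 and IL-21) and the IL-12 and IL-10 families signal through JAK kinases and STAT factors. The IL-1 and IL-18 receptors signal through MyD88, and the IL-17 receptors through the adaptor Act1. In bone marrow these chains mark lymphoid and myeloid cells, and IL-7 is required for B and T cell development in mice.

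The labels were set against marker genes first. Ptprc, which encodes CD45, was at 3.59 and 3.25 in VSEL 1 and VSEL 2+3, at 13.40, 13.68 and 13.54 in the 3 HSC libraries, and at 2.94 to 3.17 in ESC. Pou5f1, a pluripotency factor, was at 10.21 and 9.80 in VSEL, at most 3.96 in HSC and at least 12.90 in ESC. As a yardstick for no expression, the 95th percentile of 39 olfactory receptor genes was taken in each library; it was 6.44 and 6.30 in VSEL and 5.57 to 5.85 in the other libraries. All 19 measured markers of T and NK cells were above that level in each HSC library, against 9 or 10 of the 14 markers of stem and progenitor cells. Cd3g, a chain of the T cell receptor complex, was at 4.18 and 4.38 in VSEL and at 12.55 to 13.01 in HSC. The libraries labelled HSC therefore held T and NK cell transcripts at high levels, and the name HSC is kept below only as the label of the gate. In VSEL against HSC, 4 of 12 B lineage markers and 7 of 10 erythroid markers were higher; the B lineage genes ranged from Rag1, at 11.00 and 9.09 in VSEL and 2.96 to 2.99 in HSC, to Cd22, at 6.06 and 6.08 in VSEL and 7.29 to 11.71 in HSC. In bulk libraries, fewer cells of a type and less RNA per cell cannot be told apart.

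More interleukin receptor genes were above the olfactory level in HSC than in VSEL or ESC. Of the 35 genes, 5 and 10 were above it in VSEL 1 and VSEL 2+3, 21 to 23 in the HSC libraries and 10 to 12 in the ESC libraries. The level was higher in VSEL, at 6.44 and 6.30, than in ESC, at 5.62 to 5.69, so these counts use unlike cutoffs. Among all genes the shares were 42.9% and 46% in VSEL and 52.4% to 58.5% in the HSC and ESC libraries. In all libraries of a group, 4 of the 35 were above it in VSEL, 19 in HSC and 7 in ESC, and 14 were above it in no complete group. The median level of the 35 genes was 5.38 and 5.34 in VSEL, against 6.5 to 6.79 in HSC, and 4.83 to 5.05 in ESC. In limma's moderated F test over the 3 cell types, 13 of the 35 differed, against 25.5% of all genes.

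**Figure D1:**
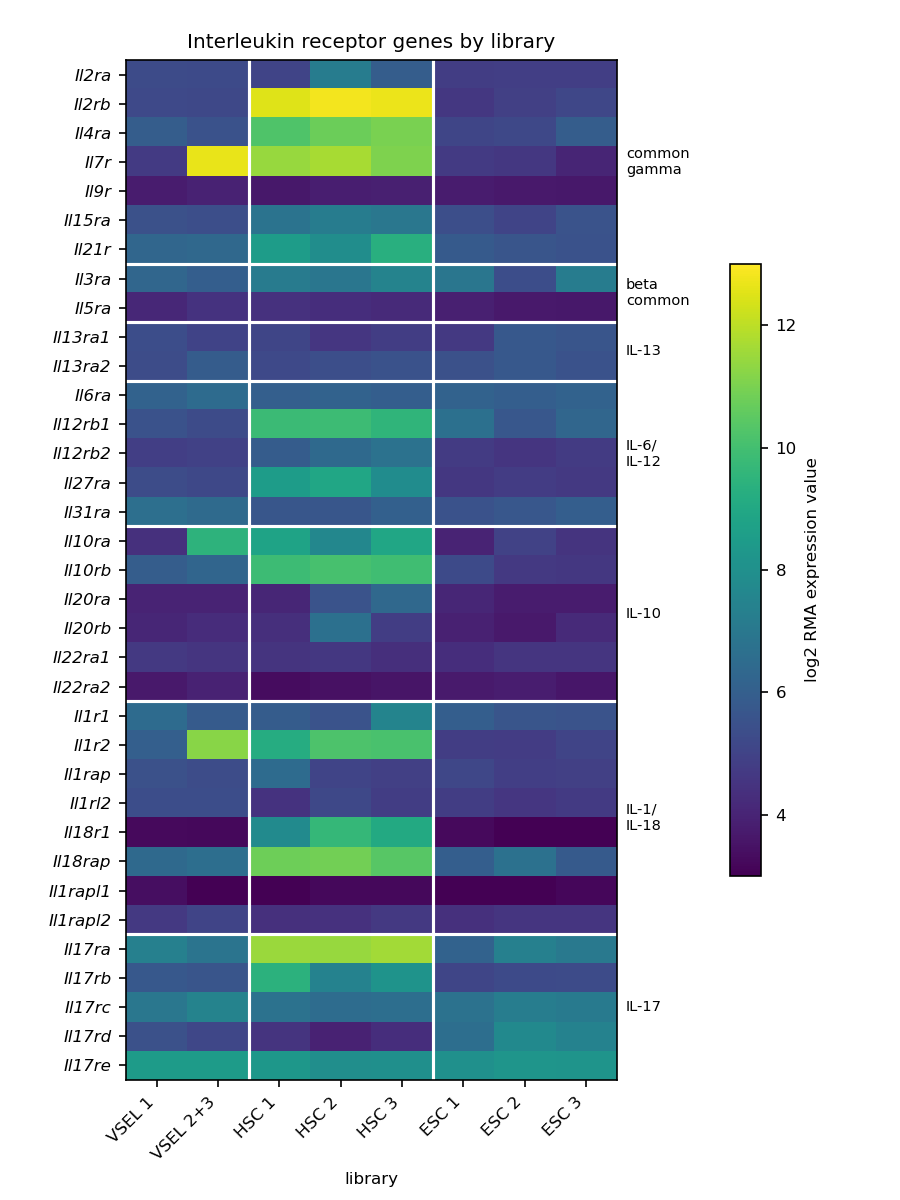
Heat map of the log2 RMA value of the 35 interleukin receptor genes (rows, grouped by receptor family, with white lines between families) in the 8 libraries (columns). Bright rows lie mainly under HSC 1 to 3, where 19 genes were above the olfactory level in every library, and Il7r, Il1r2 and Il10ra are bright in VSEL 2+3 but not in VSEL 1.

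In VSEL against HSC, 12 of the 35 interleukin receptor genes were lower and 0 were higher at an adjusted p of 0.05 (limma over all 18193 genes, Benjamini-Hochberg). Over all genes, 9.18% were called lower and 8.01% higher, 17.2% in all. At an unadjusted p of 0.05 in the same limma fit, 12 were lower and 5 higher, and other processing settings called up to 3 of the 35 higher. All VSEL libraries were below all HSC libraries for 15 of the 35 genes and above them for 7, against 17.3% and 37.8% of all genes. The median difference was -1.03 for the 35 genes and 0.22 for all genes. The 12 genes were Il2rb, Il4ra, Il15ra, Il21r, Il12rb1, Il12rb2, Il27ra, Il10rb, Il18r1, Il18rap, Il17ra and Il17rb. All 12 were above the olfactory level in the 3 HSC libraries, and 9 of them were at or below it in both VSEL libraries, so their true differences may be larger than measured. The exceptions were Il17ra, Il18rap and Il21r, each above that level in at least 1 VSEL library.

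The common gamma chain family held 4 of the 12. Il2rb, the signalling chain that IL-2 and IL-15 share on NK and memory T cells, was at 5.21 and 5.16 in VSEL, at 12.53, 12.81 and 12.70 in HSC and at 4.64, 4.91 and 5.14 in ESC. The VSEL libraries lay just above the ESC libraries and far below all 3 HSC libraries. The difference between VSEL and HSC was -7.49 (SE 0.19, adjusted p = 8.17e-06). Il4ra, the chain that binds IL-4 and is shared with the IL-13 receptor, was at 5.96 and 5.54 in VSEL, 10.25, 10.76 and 10.99 in HSC and 5.07, 5.15 and 5.96 in ESC. Again the HSC libraries stood apart, and VSEL and ESC overlapped. Its difference between VSEL and HSC was -4.92 (SE 0.36, adjusted p = 0.000502), while its other probe sets gave -0.82 and -0.53.

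Smaller differences were measured for Il15ra and Il21r. Il15ra, which presents IL-15 to neighbouring cells, was at 5.49 and 5.42 in VSEL, 6.80, 7.19 and 6.95 in HSC and 5.41, 5.07 and 5.56 in ESC, a difference between VSEL and HSC of -1.53 (SE 0.20, adjusted p = 0.00536). Its other probe set gave -3.06, the same direction. Il21r, the receptor for a T cell cytokine that acts on B and NK cells, was at 6.28 and 6.39 in VSEL, 8.51, 7.88 and 9.31 in HSC and 5.84, 5.62 and 5.52 in ESC. No VSEL library reached the lowest HSC library, and the difference was -2.23 (SE 0.39, adjusted p = 0.015). With VSEL and HSC fitted alone its adjusted p was 0.0644.

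Among the chains of the gp130 and IL-12 type, 3 of 5 were lower in VSEL. Il12rb1, shared by the receptors for IL-12 and IL-23, was at 5.50 and 5.28 in VSEL, 9.82, 9.85 and 9.55 in HSC and 6.68, 5.70 and 6.29 in ESC. The VSEL libraries were below every other library, and the difference from HSC was -4.35 (SE 0.30, adjusted p = 0.0004). Il27ra, the IL-27 binding chain of T and NK cells, was at 5.32 and 5.17 in VSEL, 8.53, 8.91 and 7.88 in HSC and 4.62, 4.78 and 4.65 in ESC, with a difference between VSEL and HSC of -3.20 (SE 0.30, adjusted p = 0.00133). Il12rb2, the chain that gives IL-12 its signal, was at 4.85 and 4.93 in VSEL, 5.89, 6.41 and 6.79 in HSC and 4.75, 4.54 and 4.76 in ESC. That difference, -1.47 (SE 0.27, adjusted p = 0.0163), had an adjusted p of 0.0521 without VSEL 1 and 0.0667 with the 2 groups fitted alone.

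Both chains of the IL-18 receptor were lower in VSEL than in HSC. Il18r1, which binds IL-18, was at 3.25 and 3.23 in VSEL, 7.80, 9.65 and 9.06 in HSC and 3.24, 2.83 and 3.02 in ESC. Its partner Il18rap was at 6.40 and 6.61 in VSEL, 10.80, 10.86 and 10.40 in HSC and 6.01, 6.75 and 5.85 in ESC. For both genes the VSEL and ESC libraries lay together and the HSC libraries lay above them. The differences between VSEL and HSC were -5.60 (SE 0.51, adjusted p = 0.00124) for Il18r1 and -4.18 (SE 0.31, adjusted p = 0.000505) for Il18rap.

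Of the IL-17 type, 2 of 5 were lower in VSEL. Il17ra, the chain shared by the IL-17 receptors, was at 7.37 and 6.85 in VSEL, 11.49, 11.44 and 11.62 in HSC and 6.13, 7.37 and 7.03 in ESC. It was above the olfactory level in all 8 libraries and its difference between VSEL and HSC was -4.41 (SE 0.38, adjusted p = 0.000956). Il17rb, which binds IL-25, was at 5.74 and 5.64 in VSEL, 9.41, 7.44 and 8.15 in HSC and 5.09, 5.23 and 5.30 in ESC. The HSC libraries were uneven but all above VSEL and ESC, and the difference of -2.64 (SE 0.53, adjusted p = 0.0222) had an adjusted p of 0.0609 without VSEL 1, 0.0638 without VSEL 2+3, 0.0528 without HSC 3 and 0.0833 with the 2 groups fitted alone.

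In the IL-10 type, 1 of 6 was called. Il10rb, a chain shared by the receptors for IL-10, IL-22 and interferon lambda, was at 5.96 and 6.26 in VSEL, 9.87, 10.08 and 9.92 in HSC and 5.25, 4.66 and 4.61 in ESC. The 3 groups did not overlap, and the difference between VSEL and HSC was -3.84 (SE 0.24, adjusted p = 0.000283). Its other probe set lay at 2.77 to 3.19 in all libraries, with a difference of 0.25. Among the 12 called genes, 6 had further probe sets, and 6 of these 7 probe sets had the same sign.

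Of 19 measured markers of T and NK cells, 15 were also lower in VSEL than in HSC. Of the 19, 4 and 7 were above the olfactory level in VSEL, 19 in each HSC library and 5 to 7 in ESC. The log2 of their summed level was 10.37 and 12.20 in VSEL, 15.25 to 15.86 in HSC, and between 9.91 and 10.17 in ESC. Of these markers, Cd3g, Klrd1 and Tbx21 were at 3.35 to 4.38 in VSEL, below the olfactory level, and at 10.44 to 13.01 in HSC. Others were above that level in at least 1 VSEL library. Zap70 was at 8.35 and 8.62 in VSEL, against a mean of 10.15 in HSC. Nkg7 was at 4.95 in VSEL 1 and 11.23 in VSEL 2+3, against a mean of 13.01 in HSC. Ncr1 was at 6.32 and 9.73, against a mean of 9.06 in HSC. Markers of mast cells, basophils and eosinophils, cells that also carry several of these receptors, had a log2 summed level of 8.93 and 8.82 in VSEL, 10.71 to 13.09 in HSC, and between 8.45 and 8.67 in ESC. Erythroid markers went the opposite way, with 10 of 10 above the olfactory level in both VSEL libraries and 8 to 10 in HSC, and a log2 summed level of 16.50 and 15.38 in VSEL and 12.34 to 13.30 in HSC. Of 13 granulocyte and monocyte markers, 0 were higher and 1 was lower in VSEL than in HSC, with a median difference of -0.08. Of 12 B lineage markers, 4 were higher and 0 lower. The part of other cell types in the 12 differences was not tested.

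**Figure D2:**
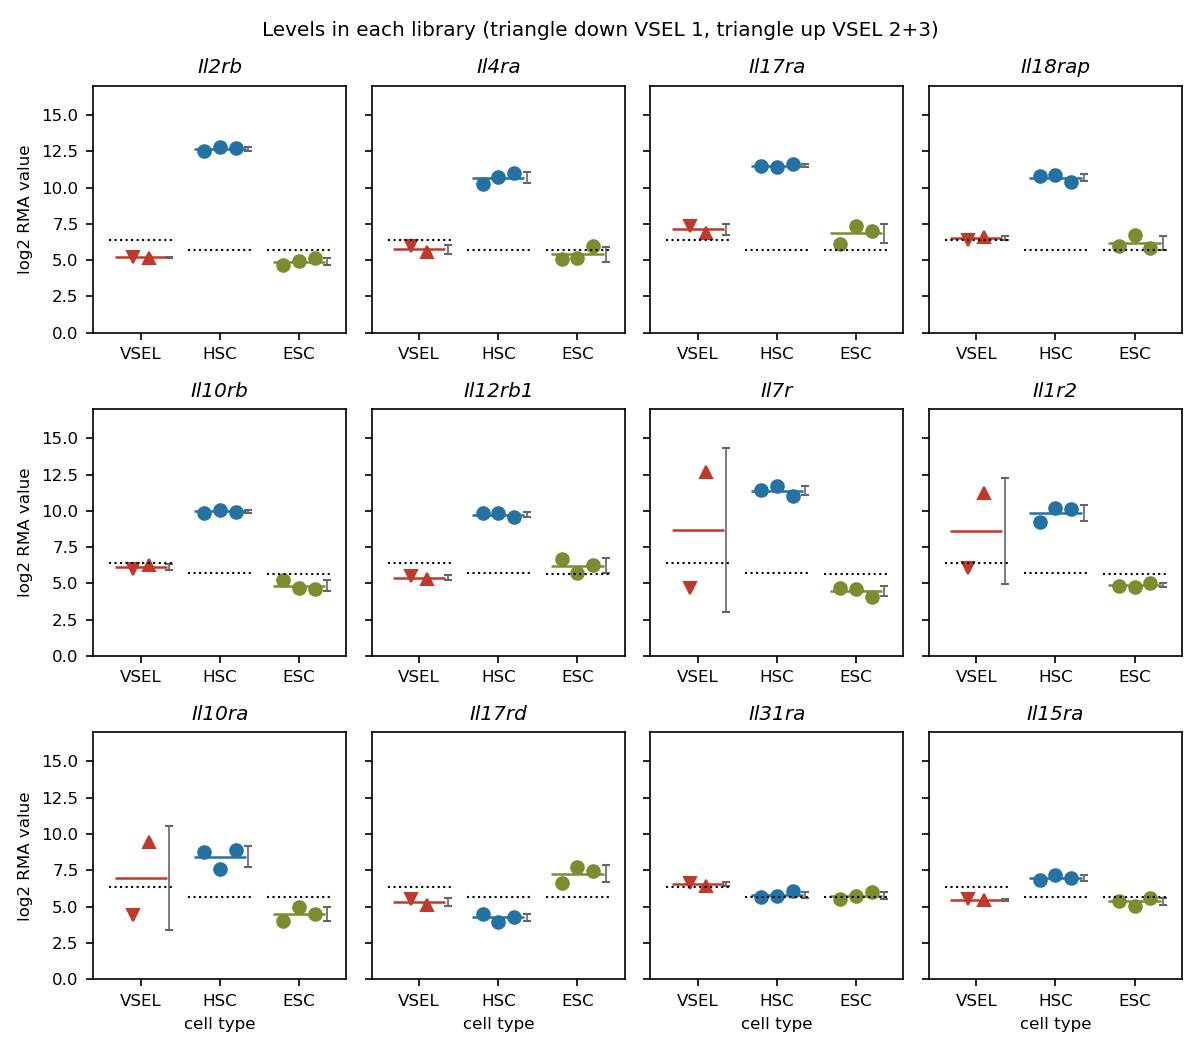
Log2 RMA value of selected interleukin receptor genes in each library of VSEL (red; downward triangle VSEL 1, upward triangle VSEL 2+3), HSC (blue) and ESC (olive), with the mean as a line, the SD as a grey bar and the mean olfactory level dotted. Il2rb is at 5.16 to 5.21 in VSEL and at 12.53 to 12.81 in HSC, while Il7r is at 4.70 in VSEL 1 and at 12.69 in VSEL 2+3.

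Il7r, Il1r2 and Il10ra split the VSEL libraries, so their VSEL mean describes neither library. Il7r, the IL-7 binding chain of lymphoid progenitors and T cells, was at 4.70 in VSEL 1 and 12.69 in VSEL 2+3 (12.72 and 12.65 on the separate arrays), at 11.46, 11.68 and 11.05 in HSC and at 4.68, 4.61 and 4.05 in ESC. VSEL 1 lay with ESC and VSEL 2+3 above every HSC library. A second probe set showed the same split, at 4.62 and 10.83 in VSEL, 8.32 to 9.17 in HSC, and between 3.61 and 4.10 in ESC. The mean of VSEL was 8.69 ± 5.65 (SD, n = 2) against 11.40 ± 0.32 in HSC (SD, n = 3), a difference of -2.70 (SE 2.06, adjusted p = 0.381, limma). With VSEL 1 as the lone VSEL library the difference was -6.70 (adjusted p = 0.000661), and with VSEL 2+3 alone it was 1.29 (adjusted p = 0.0689); these fits take a lone library to vary as the other groups do.

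Il1r2, a decoy receptor that binds IL-1 without signalling, was at 6.03 in VSEL 1 and 11.21 in VSEL 2+3, at 9.20, 10.21 and 10.12 in HSC and at 4.80, 4.77 and 5.05 in ESC. VSEL 2+3 was above all HSC libraries, while VSEL 1 was closer to ESC. The difference between VSEL and HSC was -1.22 (adjusted p = 0.547), with -3.81 (adjusted p = 0.00551) for VSEL 1 alone and 1.36 (adjusted p = 0.0886) for VSEL 2+3 alone. Il10ra, the IL-10 binding chain, which was singled out after its values were seen, was at 4.40 in VSEL 1 and 9.47 in VSEL 2+3, at 8.78, 7.62 and 8.93 in HSC and at 4.01, 4.95 and 4.51 in ESC. Its difference from HSC was -1.51 (adjusted p = 0.462), with -4.04 (adjusted p = 0.0134) for VSEL 1 alone and 1.02 (adjusted p = 0.292) for VSEL 2+3 alone. The other Il10ra probe sets lay between 3.82 and 5.98 in all libraries. These 3 genes, 8.57% of the 35, were at least 4-fold higher in VSEL 2+3 than in VSEL 1, near the 7.16% of all genes. At least 4-fold lower were 0 of the 35, against 7.01% of all genes. A split at this rate is not particular to the receptor genes, and with 1 library on each side it has no test.

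Marker lists of blood cells also differed between the VSEL libraries. The pan-leukocyte markers averaged 10.59 in VSEL 2+3 and 6.66 in VSEL 1, with 10 and 4 of 12 above the olfactory level, and the log2 of their summed level was 16.07 and 13.63, against 16.47 to 16.66 in HSC. Granulocyte and monocyte markers had a log2 summed level of 17.85 in VSEL 2+3 and 16.28 in VSEL 1, against 16.96 to 17.17 in HSC. B lineage markers went the other way, with 14.03 in VSEL 2+3 and 15.57 in VSEL 1, against 11.68 to 13.94 in HSC, and so did erythroid markers, with 15.38 in VSEL 2+3 and 16.50 in VSEL 1. The part of these cells in the split of Il7r, Il1r2 and Il10ra was not tested.

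**Figure D3:**
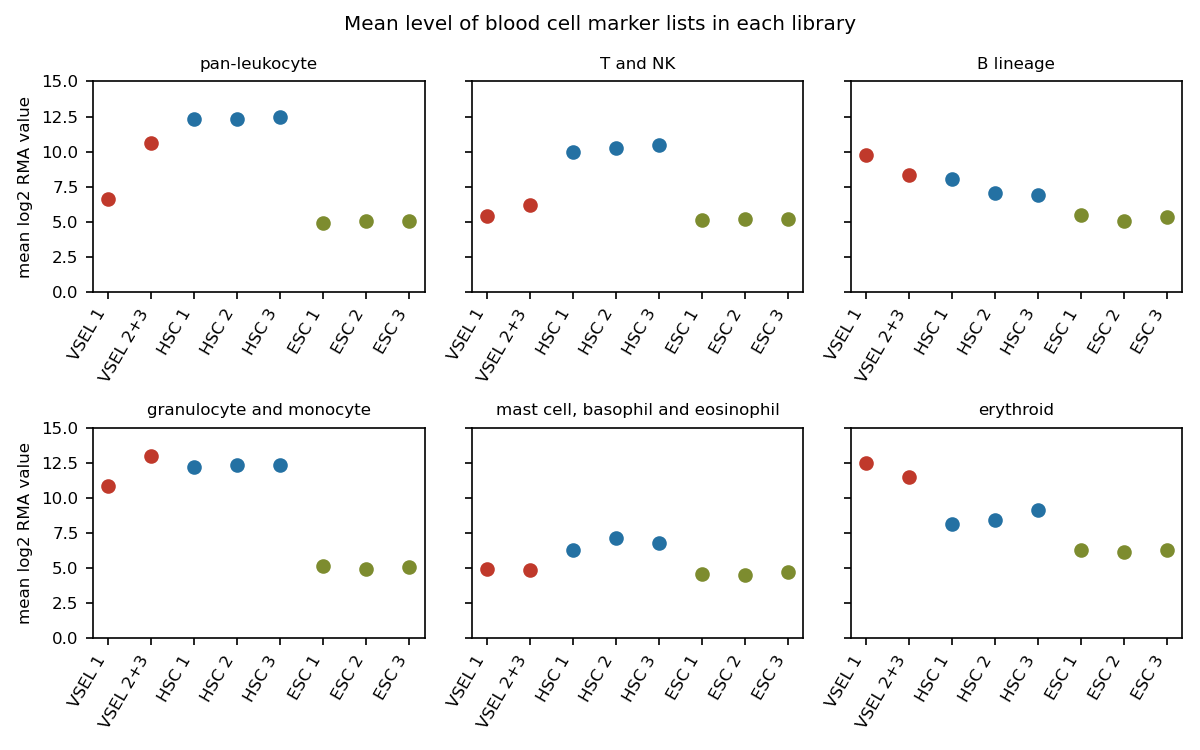
Mean log2 RMA value of 6 blood cell marker lists (panels) in each of the 8 libraries. Pan-leukocyte markers average 10.59 in VSEL 2+3 and 6.66 in VSEL 1, and T and NK markers are high in the 3 HSC libraries, where all 19 are above the olfactory level.

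The promoters of 4 of these genes are shown because they stand for the 2 patterns, the split within VSEL (Il7r and Il1r2) and the HSC-high genes (Il18rap and Il4ra). Each is the 250 bases before the annotated start, from RefSeq (GRCm38.p6), 5′ to 3′ on the gene's strand: chr15:9529877-9530126 on the minus strand for Il7r, chr1:40085843-40086092 on the plus strand for Il1r2, chr1:40515112-40515361 on the plus strand for Il18rap and chr7:125552021-125552270 on the plus strand for Il4ra. Capitals mark matches on either strand to 4 motif strings, which could overlap. The RUNX string was TGTGGT, the ETS string was AGGAAG, the GATA string was AGATAA, and the STAT string was TTCNNNGAA.
Il7r: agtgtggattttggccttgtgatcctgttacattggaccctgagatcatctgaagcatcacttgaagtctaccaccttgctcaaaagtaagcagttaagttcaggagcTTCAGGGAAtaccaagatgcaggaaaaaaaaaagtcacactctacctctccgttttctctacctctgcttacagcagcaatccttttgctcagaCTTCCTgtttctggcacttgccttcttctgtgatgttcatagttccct
Il1r2: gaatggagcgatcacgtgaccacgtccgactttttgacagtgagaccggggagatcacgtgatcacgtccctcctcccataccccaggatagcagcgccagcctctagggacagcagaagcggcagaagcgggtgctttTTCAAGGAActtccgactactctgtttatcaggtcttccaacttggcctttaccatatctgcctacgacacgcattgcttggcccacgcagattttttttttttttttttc
Il18rap: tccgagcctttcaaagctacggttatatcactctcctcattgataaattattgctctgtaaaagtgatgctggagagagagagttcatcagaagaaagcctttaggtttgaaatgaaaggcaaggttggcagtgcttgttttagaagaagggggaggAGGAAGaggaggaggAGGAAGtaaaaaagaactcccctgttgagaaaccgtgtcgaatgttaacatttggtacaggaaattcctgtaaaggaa
Il4ra: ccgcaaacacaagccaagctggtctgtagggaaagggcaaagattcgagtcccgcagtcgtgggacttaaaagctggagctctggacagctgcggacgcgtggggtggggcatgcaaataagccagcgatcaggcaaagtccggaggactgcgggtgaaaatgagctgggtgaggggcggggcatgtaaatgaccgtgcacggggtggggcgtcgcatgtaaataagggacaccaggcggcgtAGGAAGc

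Il7r held 1 ETS and 1 STAT string, Il1r2 held 1 STAT string, Il18rap held 2 ETS strings and Il4ra held 1. Of the 35 genes, 28 had 32 annotated windows. The ETS string was in 37.5% of these windows and in 29.5% of 32851 windows of all genes, the STAT string in 15.6% and 7.0%, the GATA string in 18.8% and 10.0%, and the RUNX string in 9.4% and 14%. A match describes the letters only.

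In VSEL against ESC, 3 of the 35 genes passed the test, 2 higher and 1 lower, against 6.38% and 10.5% of all genes called in those directions and 16.9% in either. All VSEL libraries were above all ESC libraries for 16 genes and below them for 2, against 33% and 22.6% of all genes. Most of the 16 rest on low values, as only 4 of the 35 were above the olfactory level in both VSEL libraries. That level was itself higher in VSEL, at 6.44 and 6.30, than in ESC, at 5.62 to 5.69. The median difference was 0.29 for the 35 genes and 0.11 for all genes. None of the 3 calls held under every processing setting. Blood cell markers were also higher in VSEL than in ESC: 9 of 10 erythroid, 10 of 13 granulocyte and monocyte, 7 of 12 B lineage, 4 of 12 pan-leukocyte and 3 of 19 T and NK markers, with median differences of 6.92, 7.86, 4.10, 4.13 and 0.43. Their part in the differences from ESC was not tested. Il10rb, whose values are given above, was 1.27 higher in VSEL (SE 0.24, adjusted p = 0.0177), but both VSEL libraries were below their olfactory level. Its adjusted p was 0.0596 without VSEL 2+3 and 0.0558 without ESC 2.

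Il31ra, which binds IL-31 together with the oncostatin M receptor, was at 6.64 and 6.44 in VSEL, 5.66, 5.69 and 6.06 in HSC and 5.54, 5.70 and 6.00 in ESC. Both VSEL libraries were above all 6 others, and the difference between VSEL and ESC was 0.79 (SE 0.21, adjusted p = 0.0477), a call that was lost in 14 of 19 alternative settings. The VSEL values of Il31ra were close to the olfactory level, which was itself higher in VSEL, at 6.44 and 6.30, than in ESC, at 5.62 to 5.69. Il17rd, also known as Sef, an inhibitor of fibroblast growth factor signalling, was at 5.49 and 5.14 in VSEL, 4.49, 3.96 and 4.30 in HSC and 6.61, 7.74 and 7.43 in ESC. It was the single gene of the 35 that was called lower in both other cell types than in ESC, and the 3 groups did not overlap. The difference between VSEL and ESC was -1.94 (SE 0.36, adjusted p = 0.0176), with an adjusted p of 0.06 without VSEL 2+3 and 0.053 without ESC 3. The VSEL libraries were below the olfactory level for this gene, and a second probe set was flat, at 4.00 to 4.66 in all libraries.

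For the genes that split VSEL, the comparison with ESC rested on VSEL 2+3. Il7r differed by 4.25 (SE 2.06, adjusted p = 0.196), with 8.24 (adjusted p = 0.000468) for VSEL 2+3 alone and 0.25 (adjusted p = 0.679) for VSEL 1 alone. Il1r2 differed by 3.74 (adjusted p = 0.109, limma), with 6.33 for VSEL 2+3 alone and 1.16 for VSEL 1 alone. With the array number as a block and all 9 arrays kept separate it differed by 4.61 (adjusted p = 0.0412, limma). That fit counts the near-identical VSEL arrays 2 and 3 as separate libraries, which gives the higher level more weight. Il10ra differed by 2.44 (adjusted p = 0.251), with 4.98 (adjusted p = 0.00847) and -0.09 (adjusted p = 0.943).

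In HSC against ESC, 14 of the 35 interleukin receptor genes were higher and 1 was lower, against 6.99% and 9.93% of all genes. All HSC libraries were above all ESC libraries for 18 genes and below them for 2, against 16.5% and 21.5% of all genes. The median difference was 1.22 for the 35 genes and -0.04 for all genes. The higher genes were the 12 that were lower in VSEL than in HSC, together with Il7r and Il1r2; both comparisons use the same HSC libraries. Il2rb differed by 7.78 (SE 0.17, adjusted p = 2.1e-06), Il18r1 by 5.81 (SE 0.46, adjusted p = 0.000338), Il4ra by 5.27 (SE 0.32, adjusted p = 0.00011) and Il10rb by 5.11 (adjusted p = 2.22e-05). For each of these every HSC library was above every ESC library. For 7 of the 12 shared genes, Il2rb, Il18r1 and Il10rb among them, and for Il7r and Il1r2, no ESC library was above its olfactory level, so the true differences may be larger than measured.

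The other 8 shared genes had differences of 4.67 for Il17ra (adjusted p = 0.000241), 4.49 for Il18rap (adjusted p = 0.000115), 3.76 for Il27ra (adjusted p = 0.000221), 3.52 for Il12rb1 (adjusted p = 0.000293), 3.13 for Il17rb (adjusted p = 0.00584), 2.91 for Il21r (adjusted p = 0.00228), 1.68 for Il12rb2 (adjusted p = 0.00449) and 1.63 for Il15ra (adjusted p = 0.00153). Il17rd was the gene that went the other way, with -3.01 (SE 0.32, adjusted p = 0.00135), and its second probe set gave -0.01. Of the 15 called genes, 8 had further probe sets, and all 9 of those probe sets had the same sign. For Il10rb and Il17rd these were flat, with differences of 0.05 and -0.01.

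Il7r was 6.95 higher in HSC than in ESC (SE 1.84, adjusted p = 0.0493) and Il1r2 4.97 higher (SE 1.22, adjusted p = 0.0378). The joint fit takes its spread from all 3 cell types, VSEL included, and with HSC and ESC fitted alone the adjusted p was 5.92e-05 for Il7r and 0.000345 for Il1r2. Leaving out any 1 of the HSC or ESC libraries in the joint fit raised it to 0.117 to 0.136 for Il7r and 0.0827 to 0.109 for Il1r2, and with the array number as a block it was 0.0683 for Il7r. Il10ra, which differed by 3.95, had an adjusted p of 0.0847 in the joint fit and 0.00263 with HSC and ESC alone. All 19 T and NK markers and all 12 pan-leukocyte markers were higher in HSC than in ESC as well, and their part in these differences was not tested.

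**Figure D4:**
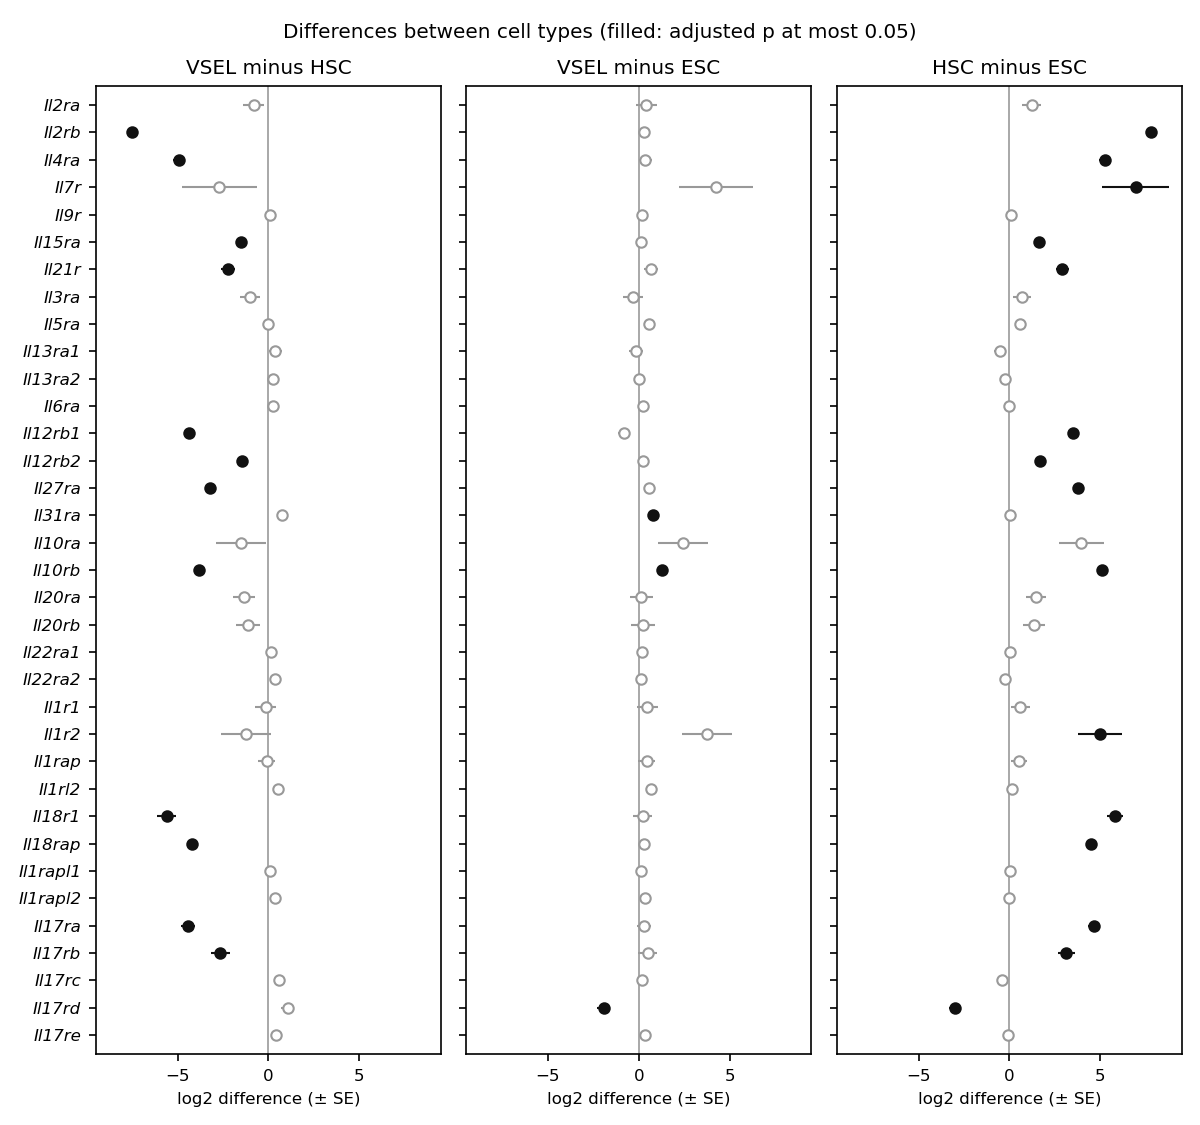
Log2 difference with its SE for each of the 35 genes (rows, by receptor family) in VSEL minus HSC, VSEL minus ESC and HSC minus ESC (panels). Filled points have an adjusted p at or under 0.05: 12 lie left of 0 in VSEL minus HSC, 3 are filled in VSEL minus ESC, and 14 lie right of 0 and 1 left of 0 in HSC minus ESC.

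The other 19 genes were called in no comparison. In VSEL their values ran from 3.03 to 9.47 with a median of 5.27, in HSC from 2.92 to 8.93 with a median of 5.11, and in ESC from 3.02 to 8.20 with a median of 4.71. Il17re, which binds IL-17C, was above the olfactory level in all 8 libraries, at 8.48 and 8.48 in VSEL, from 7.93 to 8.28 in HSC, and from 8.01 to 8.20 in ESC. Il17rc, the partner of Il17ra for IL-17A and IL-17F, was likewise above it in all 8, at 6.95 and 7.48 in VSEL, from 6.52 to 6.78 in HSC, and from 6.76 to 7.26 in ESC. Both rest on the probe set with the highest mean. The other probe sets lay at 4.75 to 6.35 for Il17re and at 3.45 to 4.28 for Il17rc. Il6ra, which binds IL-6, lay at 6.13 and 6.48 in VSEL, from 5.98 to 6.15 in HSC, and from 6.01 to 6.13 in ESC, with overlapping groups. Its other probe set was uneven in HSC, at 5.25, 5.32 and 7.87. Il3ra, the IL-3 binding chain, was at 6.32 and 6.00 in VSEL, from 6.93 to 7.48 in HSC, and from 5.35 to 7.19 in ESC.

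Several of these genes were uneven among the HSC libraries. Il2ra, the high-affinity IL-2 chain known as CD25, was at 5.30 and 5.24 in VSEL, 5.06, 7.21 and 5.95 in HSC and 4.83 to 4.87 in ESC. Il20ra and Il20rb, which form the IL-20 receptor, were high in different HSC libraries: Il20ra at 4.07, 5.57 and 6.36 and Il20rb at 4.36, 6.69 and 4.82, against 3.99 to 4.27 for both genes in VSEL. Without HSC 1, Il20ra differed by -1.97 between VSEL and HSC (adjusted p = 0.0183). Il1r1, the signalling IL-1 receptor, reached 7.51 in HSC 3 and 6.51 in VSEL 1 and stayed at 5.55 to 5.97 elsewhere. The remaining uncalled genes were Il9r, Il5ra, Il13ra1, Il13ra2, Il22ra1, the soluble IL-22 binding protein gene Il22ra2, Il1rap, the IL-36 receptor gene Il1rl2 and the nervous system genes Il1rapl1 and Il1rapl2.

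Across the 35 genes, VSEL 1 correlated at 0.864 to 0.892 with the ESC libraries, 0.348 to 0.46 with the HSC libraries and 0.462 with VSEL 2+3. VSEL 2+3 correlated at 0.488 to 0.554 with HSC and 0.319 to 0.398 with ESC. Within groups the values were 0.944 to 0.963 for HSC and 0.894 to 0.945 for ESC. These are descriptions over 35 genes that share their libraries and probe brightness. Of the 35, only Il7r, Il1r2 and Il10ra were at least 4-fold apart between VSEL 1 and VSEL 2+3. How far these 3 genes set the correlations was not tested. Over all genes, VSEL 1 correlated at 0.785 to 0.808 with ESC and 0.752 to 0.775 with HSC, and VSEL 2+3 at 0.779 to 0.787 with ESC and 0.762 to 0.782 with HSC.

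Genes that act with these receptors were counted from lists chosen by function. Over all genes, 8.01% were called higher and 9.18% lower in VSEL against HSC, 6.38% and 10.5% in VSEL against ESC, and 6.99% and 9.93% in HSC against ESC. Of 13 receptor partners and antagonists, 2 (15.4%) were lower in VSEL than in HSC. Csf2rb, the beta chain that IL-3, IL-5 and GM-CSF receptors share, differed by -6.34 (adjusted p = 0.00053), and Crlf2, the partner of Il7r in the TSLP receptor, by -3.66 (adjusted p = 0.0148, and 0.0531 without VSEL 1). Some uncalled partners split the VSEL libraries. Csf2rb2 was at 4.45 in VSEL 1 and 10.96 in VSEL 2+3, against a mean of 7.99 in HSC. Ifnlr1 was at 4.77 and 10.89, against 6.42, and Il1rn at 4.34 and 9.80, against 6.20. Sigirr went the other way, at 9.86 and 7.75, against 9.76. In HSC against ESC, 3 partners (23.1%) were higher and 1 (7.69%) lower. Csf2rb differed by 6.77 (adjusted p = 0.000121), Csf2ra, the GM-CSF binding chain, by 3.79 (adjusted p = 0.0138, and 0.0525 without HSC 1), and Lifr, the receptor for leukaemia inhibitory factor, by -3.11 (adjusted p = 0.0236, a call lost without HSC 1, ESC 1 or ESC 2, up to 0.0823). In VSEL against ESC, 1 partner (7.69%) was higher, Csf2ra by 3.12 (adjusted p = 0.0442), and this call was lost without any 1 library except ESC 1, with an adjusted p of up to 0.134.

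Of 17 signal transducers, 1 (5.88%) was higher and 1 lower in VSEL than in HSC, 1 was higher in VSEL than in ESC, and 3 (17.6%) were higher in HSC than in ESC, so only the share in the last comparison was above the share of all genes. The median difference between VSEL and HSC was -1.67. Several transducers split the VSEL libraries, in both directions. Jak1 was at 5.25 in VSEL 1 and 10.71 in VSEL 2+3, and Irak3 at 3.91 and 10.98. Stat5b went the other way, at 9.14 and 4.58, as did Stat4, at 11.46 and 5.72. Such splits widen the SE, so the low counts do not mean that these genes were alike. Tyk2, the kinase that binds Il12rb1 and Il10rb, differed by -2.22 between VSEL and HSC (adjusted p = 0.014). Irak2, a kinase of the IL-1 pathway, differed by 0.82 (adjusted p = 0.0357), a call lost without VSEL 2+3 (0.108) and without HSC 1, HSC 3 or any 1 ESC library. Jak2, the kinase of the IL-3 and IL-12 receptors, was 6.34 higher in VSEL than in ESC (adjusted p = 0.00237) and 5.15 higher in HSC than in ESC (adjusted p = 0.00148). Stat4, the factor that IL-12 activates, was 6.59 higher in HSC than in ESC (adjusted p = 0.0383), and Stat6, the factor that IL-4 activates, 2.29 higher (adjusted p = 0.04). Leaving out any 1 HSC or ESC library raised the adjusted p to as much as 0.121 for both and ended both calls, except that of Stat4 without ESC 2.

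Of 17 feedback inhibitors and targets, 7 (41.2%) were lower in VSEL than in HSC and 7 (41.2%) were higher in HSC than in ESC. Among the calls in VSEL against HSC, those of Socs3 and Nfkbiz held when each library was left out in turn. Those of Bcl2, Mcl1, Nfkbia, Pim2 and Socs6 did not, and all were lost without HSC 1. Socs3, an inhibitor of STAT3 signalling, differed by -4.0 between VSEL and HSC (adjusted p = 0.000686) and by -2.48 between VSEL and ESC (adjusted p = 0.00489). Nfkbiz, which IL-1 and IL-17 induce, differed by -3.04 between VSEL and HSC (adjusted p = 0.0118). Mcl1, a survival gene, was at 9.22 in VSEL 1 and 11.15 in VSEL 2+3, against a mean of 12.61 in HSC. Its difference was -2.43 (adjusted p = 0.0287), with -3.39 for VSEL 1 alone and -1.46 for VSEL 2+3 alone, and the call was lost without any 1 HSC or ESC library (adjusted p up to 0.0774). Against ESC, 4 of the 17 (23.5%) were higher and 3 (17.6%) lower in VSEL, with Ptpn6, a phosphatase of blood cells, 3.94 higher (adjusted p = 0.00673) and Nfkbia, an inhibitor of NF-kappaB, 2.85 higher (adjusted p = 0.00562).

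Of 36 interleukin ligand genes, 3 (8.33%) were higher and 2 (5.56%) lower in VSEL than in HSC, near or below the shares of all genes. Il16, a leukocyte chemoattractant, was at 6.33 in VSEL 1 and 9.46 in VSEL 2+3, against a mean of 11.13 in HSC. Its difference was -3.23 (adjusted p = 0.0447), with -4.80 for VSEL 1 alone and -1.67 for VSEL 2+3 alone, and the call was lost without any 1 HSC or ESC library (adjusted p up to 0.106). Il1f9, which encodes IL-36 gamma, differed by -1.69 (adjusted p = 0.00591) and Il17b by 0.99 (adjusted p = 0.0164, and 0.0534 without VSEL 1). In HSC against ESC, 4 ligands (11.1%) were higher and 1 (2.78%) lower. Il16 was 6.20 higher (adjusted p = 0.00214), and Il1b, which encodes IL-1 beta, 5.01 higher (adjusted p = 0.0149, a call lost without HSC 2, ESC 1 or ESC 2, up to 0.0528).

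Among 13 other cytokine receptors, 1 (7.69%) was higher and 3 (23.1%) lower in VSEL than in HSC. Ifngr1, a chain of the interferon gamma receptor, differed by -3.48 (adjusted p = 0.00583) and Csf3r, the G-CSF receptor, by -3.34 (adjusted p = 0.00577). Csf1r, the M-CSF receptor, was at 6.26 in VSEL 1 and 9.25 in VSEL 2+3, against a mean of 10.90 in HSC. Its difference was -3.14 (adjusted p = 0.0479), with -4.64 for VSEL 1 alone and -1.64 for VSEL 2+3 alone. That call was lost without VSEL 1 and without any 1 HSC or ESC library (adjusted p up to 0.123). In HSC against ESC, 6 of the 13 (46.2%) were higher and 1 lower, and in VSEL against ESC 2 (15.4%) were higher and 1 lower. Epor, the erythropoietin receptor, was 3.20 higher in VSEL than in ESC (adjusted p = 0.0213, and 0.0698 without VSEL 1), and Kit, the stem cell factor receptor, differed by -3.03 (adjusted p = 0.0111).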

How the data were processed

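Each deposited value is a log2 expression value for 1 probe set of an Affymetrix mouse array, made by the authors with RMA and Partek 6.5 according to the submitters' processing notes. RMA corrects background, quantile-normalizes the arrays and combines the probes of each set; the sources used here give no settings. Per the labels' protocols, cDNA was made from a lysate of 20 cells with a T7 primer and amplified by PCR, which can add spread for rare transcripts. Precision is limited by how few arrays there are.

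Of 45101 probe sets, 64 were controls and left out, 34958 had 1 listed gene, 932 several and 9211 none, and genes were read only from probe sets with 1 gene. Symbols were updated through RefSeq (GRCm38.p6) for 34741 of 34945 probe sets, and 204 kept theirs. VSEL arrays 2 and 3 were averaged, which left 8 libraries. One fit in limma 3.58.1 (R 4.3.3; lmFit, eBayes, two-sided tests, 5 residual and 1.37 prior degrees of freedom) covered the 3 cell types and 3 comparisons, with Benjamini-Hochberg adjustment over all 18193 genes. The fit gives every cell type the same spread, so SEs of genes that split the VSEL libraries are large in all comparisons. The fit was also run on simulated data in which every library had the same spread for a gene. Such data cannot show how the fit treats genes that split the VSEL libraries. Tables and figures were made with pandas 2.3.3 and matplotlib 3.10.9.

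The receptor genes and the lists were chosen with earlier results of these data known. Per-library values are given for Il7r and for each receptor gene called in a comparison or by limma's moderated F test, and up to 3 called genes per list and comparison are named; further names, the motifs and the printed promoters were chosen after values were seen. Alternatives covered the handling of VSEL arrays, a replicate block, normalization, the choice of probe set, filters on low values, the model and leaving out each library. Leaving out each library was extended to the genes of the other lists after the data were seen.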

Additional observations from a re-analysis of the deposited data

How the results depend on the processing

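Across 20 alternative settings, the number of receptor genes called in VSEL against HSC was 8 to 15 (12 as reported), and 9 of the 12 calls held in every setting in which the gene was tested; Il12rb2, Il17rb and Il21r lost theirs in some. In HSC against ESC it was 11 to 17 (15 as reported), and 13 calls held, the exceptions being Il7r and Il1r2. In VSEL against ESC, with 3 as reported, it was 6 with all 9 arrays kept separate, 1 when only genes above the median gene were tested, 0 with the 2 groups fitted alone and 0 with array weights; leaving out 1 library gave 0 (without VSEL 2+3) to 5 (without VSEL 1). In the limma fits that gave 0, 9, 5 and 4 receptor genes had an unadjusted p under 0.05, in the order given. The F test called 10 to 17 receptor genes (13 as reported) under alternatives added after the data were seen. No called difference changed sign. The cause of these changes was not tested.

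Over all genes, calls ran from 1249 (array weights) to 4757 (9 arrays) in VSEL against HSC, with 3129 as reported, and from 1441 to 4719 in VSEL against ESC under the same settings, with 3075 as reported. Cyclic loess moved the median of all genes by -0.16 in VSEL against HSC, and the median of the receptor genes was then -1.0, against 0.06 for all genes. In VSEL against ESC, loess moved the median of all genes by -0.11 and centring on the median gene by 0.16, and the medians of the receptor genes were then 0.14 and 0.45; in HSC against ESC centring moved it by 0.12. With the replicate number as a block and 9 arrays kept separate, 12, 4 and 14 receptor genes were called in VSEL against HSC, VSEL against ESC and HSC against ESC. The labels do not say what the numbers share, and deviations of same-numbered arrays correlated at -0.09 to 0.16 over 9 pairs, so the numbers were not taken to pair the samples. Low signal limits what can be said of 14 genes that were above the olfactory level in no complete group.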
